A study of Mus musculus with 8 samples.

Results

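The cytosolic ribosomal protein genes were taken by name, as every gene whose array annotation symbol was Rpl, Rps or Rplp followed by a number and at most 2 letters, with Rps27l left out. The rule gave 44 of the 18193 genes that had a probe set of their own, 20 of the small subunit and 24 of the large subunit or its stalk. Each gene was read by its brightest single-gene probe set. A further 110 probe sets that carry a ribosomal protein symbol together with another gene's were not used, so several members of the family, Rpl5, Rpl23 and Rplp1 among them, have no value here. The selection used names only and no measured value.

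The tumours were grown from B16F1, an established mouse melanoma line, under the skin of the right hind limb. The hosts, aged 8 to 12 weeks, were wild-type C57BL/6-NCr mice (WT) or TNFR1,2 -/- mice (TNFR KO), which lack both receptors for tumour necrosis factor and came from B6;129S-Tnfrsf1a[tm1Imx] Tnfrsf1b[tm1Imx]/J breeding pairs, labelled C57BL/6 by host strain. The injected tumour cells were the same in both hosts and carry their own receptor genes, so the deletion applies to host cells only. Tumours of 268 to 478 mm3 in 5 to 7 mice of each host were given a single dose of 20 Gy of X-rays or left untreated, and were excised 5 h later. Total RNA of the whole tumour was pooled within each of the 4 groups, and each pool was run on 2 Affymetrix Mouse Genome 430 2.0 arrays. The 2 arrays of a group are technical duplicates of 1 pool, so the spread between animals was not measured. Because the tissue is a whole tumour, fewer cells of a type and less RNA per cell cannot be told apart.

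Cytosolic ribosomal proteins are the structural proteins that, with the ribosomal RNAs, make up the small subunit, which decodes messenger RNA, and the large subunit, which joins amino acids. Their messenger RNAs are among the most abundant of a growing cell and typically begin with an unbroken run of pyrimidines, the 5′ terminal oligopyrimidine (TOP) tract, through which mTORC1 and the RNA-binding protein Larp1 control their translation together. Free Rpl5 and Rpl11 bind Mdm2 when ribosome assembly is disturbed, which stabilises p53, and ribosomal protein genes are therefore often examined after irradiation.

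The start sites of some members that the results turn on are given first, all of them with a pyrimidine run. RefSeq promoter windows (build GRCm38.p6) were matched by gene identifier for 38 of the 44 members. A run of at least 6 C or T lay within 15 bases either side of the annotated start in 25 of their 45 windows, or 55.6%, against 29.2% of all 32851 windows. Other members named below, among them Rpl11, Rps3, Rplp0, Rps28 and Rpl41, had no such run and are not shown. Each line gives those 30 bases, 5′ to 3′ on the gene's own strand, with the longest pyrimidine run in capitals. The first 4 genes are members whose probe sets were bright or moderately bright, and the last 4 are Rpl39 and the members that differed between hosts.
Rpl38, chr11:114668565-114668594, plus strand: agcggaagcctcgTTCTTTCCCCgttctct
Rps18, chr17:33955651-33955680, minus strand: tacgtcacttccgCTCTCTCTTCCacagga
Rpl4, chr9:64173372-64173401, plus strand: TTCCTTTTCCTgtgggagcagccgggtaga
Rps6, chr4:86857353-86857382, minus strand: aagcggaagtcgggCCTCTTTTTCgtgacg
Rpl39, chrX:37085208-37085237, minus strand: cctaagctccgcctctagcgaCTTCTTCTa
Rpl39l, chr16:10170213-10170242, plus strand: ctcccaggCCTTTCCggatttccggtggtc
Rpl12, chr2:32961697-32961726, plus strand: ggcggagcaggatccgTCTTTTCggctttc
Rpl27a, chr7:109519180-109519209, plus strand: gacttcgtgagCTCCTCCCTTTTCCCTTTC
The runs differ in length and place, 10 bases in Rpl38, 11 in Rps18, 11 in Rpl4, 10 in Rps6, 8 in Rpl39, 7 in Rpl39l, 7 in Rpl12 and 19 in Rpl27a, and the capitals mark letters only, not a tested element. The ETS core CCGGAAG, searched on both strands from 250 bases before to 50 after the start, was in 40% of the members' windows and 8.86% of all windows. The shares were 15.6% and 6.34% for the YY1 core AAGATGG, and 11.1% and 13.6% for TATAAA.

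The values are MAS5 signals with a trimmed mean of 500 on every array. The melanocyte genes that define the labelled tissue were all present, with 10 of 10 tested and a summed signal of 190816 to 235908 on the 8 arrays. Several measures differed between the pools. The 99th percentile of signal was 13554 in untreated WT, 15179 in irradiated WT, 14362 in untreated TNFR KO and 15464 in irradiated TNFR KO. The poly-A spike-in dap read 13941 in untreated and 22472 in irradiated WT, against 8.1 and 14.9 in TNFR KO, and the 18S ribosomal RNA probe sets read 292.7, 340.0, 528.6 and 944.0 in the same order of pools. Host and RNA preparation cannot be told apart.

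The members fell into 2 ranges of signal. A threshold of 10000, chosen after the values were seen, put 32 members above it and 12 below. Of the 32, 29 were read by a probe set whose identifier carries a suffix for shared or near-identical sequence, against 1 of the 12 others. Signals of different probe sets are not set against each other as gene abundance. Rps29, a small subunit protein, had the brightest probe set, at 32733 and 34930 on the untreated WT arrays, 42647 and 40788 on the irradiated WT arrays, 34994 and 37521 on the untreated TNFR KO arrays and 40181 and 38048 on the irradiated TNFR KO arrays. In both hosts the irradiated arrays lay above the untreated ones. At the other end, Rps16 read 0.9 to 27.5, Rpl3l, the striated muscle paralogue of Rpl3, 3.3 to 77.1, and Rps4l, a paralogue of Rps4x, 9.0 to 119.7. Those 3 members lay below the level for testing (the median over all probe sets, a signal of 68.8), which left 41 tested members among 11345 tested genes. The order of the 44 signals was nearly the same on every array, with a rank correlation of 0.987 to 0.996 between duplicates and 0.953 to 0.994 between arrays of different pools, given as a description over 44 genes that share each array.

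**Figure D1:**
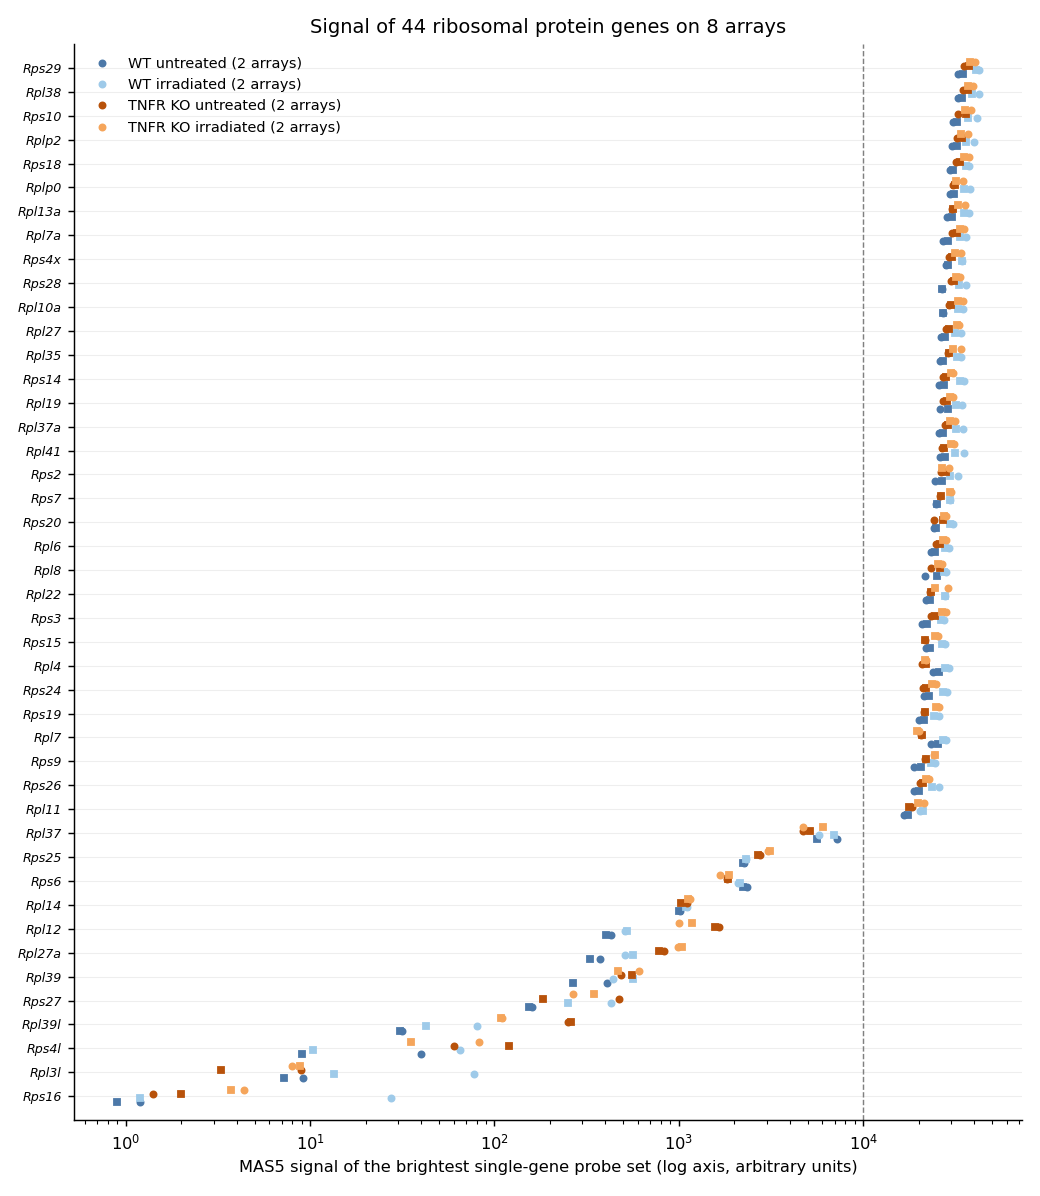
MAS5 signal (log axis, arbitrary units) of the brightest single-gene probe set of each of the 44 genes, 1 row per gene, on the 8 arrays. Colours mark the 4 pools, circles replicate 1 and squares replicate 2, and the dashed line a signal of 10000. The 32 bright genes span a narrow range with the untreated WT arrays at its lower edge for most of them, while Rpl39l, Rpl12 and Rpl27a separate by host.

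Tumours 5 h after 20 Gy were compared with untreated tumours, first over both hosts. No member passed the test in either direction, where 1.55% of all tested genes were higher and 0.353% lower (limma on the 4 pool means, adjusted p under 0.05). By the same fit 2 of the 41 members had an unadjusted p under 0.05, as did 1889 of the 11345 tested genes. A fit on the 8 arrays, which takes the spread between duplicates as its error, called 17 members higher and none lower, where it called 9.36% of all tested genes higher and 12.4% lower. The median log2 difference of the 41 members was 0.21, against -0.02 for all tested genes, and 38 of the 41 values were positive. The median stayed positive but fell to 0.07 with arrays centred on their median and to 0.02 after quantile normalization. The highest members were Rps27 (0.52 ± 0.22 SE, adjusted p = 0.271), Rpl27a (0.46 ± 0.17, adjusted p = 0.194) and Rpl39 (0.31 ± 0.18, adjusted p = 0.435), all read by dim probe sets. The lowest were Rpl39l (-0.22 ± 0.32, adjusted p = 0.774), Rpl12 (-0.13 ± 0.21, adjusted p = 0.803) and Rps6 (-0.08 ± 0.16, adjusted p = 0.853).

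The 32 bright members lay together. Their log2 differences over both hosts ran from 0.06 (Rpl7) to 0.26 (Rps3), with a median of 0.22. The ranges given for bright members are those of each gene's brightest probe set. Another bright Rpl7 probe set gave 0.26 over both hosts, 0.63 in WT and -0.735 for the difference between radiation effects. The median was 0.22 over all tested small subunit members and 0.20 over large subunit and stalk members. The 351 other tested genes with a signal of 10000 or more had a median of 0.15. Gapdh control probe sets, which are no members, read 28643 in untreated WT, 35927 in irradiated WT, 30698 in untreated TNFR KO and 33169 in irradiated TNFR KO. The median signal of the bright members was 26351, 32593, 27520 and 30181 in the same order. Both series followed the same order of pools, with irradiated WT highest and untreated WT lowest. Quantile normalization, which gives all arrays the same distribution of values, brought the bright members' median radiation difference to 0.02. By mean signal the bright members ranked from 2 to 113 among the 18193 genes, in nearly the same order on every array. That scaling holds such genes near the same values on all arrays. A small median after it was therefore largely fixed in advance, and no conclusion is drawn from it.

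In WT hosts alone, no member passed adjusted p under 0.05 and 2-fold, where 2.25% of tested genes were higher and 0.203% lower. With no fold threshold 25 members rose and none fell on the deposited scale, where 12.1% and 13.4% of all tested genes did, but 1 was higher and 2 lower with median-centred arrays, where 5.43% and 43.9% of all tested genes were. After quantile normalization 2 were higher and none lower, against 10.6% and 10.5% of all tested genes. The median of the bright members moved from 0.29 to 0.03 with median centring and -0.01 with quantile normalization. These p-values measure only the spread between duplicate arrays of 1 pool. All 32 bright members had both irradiated arrays above both untreated arrays, as 31.3% of all tested genes did, with differences from 0.19 to 0.37, against a median of 0.19 for the other bright genes. Rps28, a small subunit protein, showed the highest of them, with 26633 and 26887 on the untreated arrays and 35951 and 33277 on the irradiated arrays (0.37 ± 0.07, adjusted p = 0.0134). Among dim members, Rpl27a read 375.4 and 328.8 untreated and 509.4 and 566.8 irradiated (0.59 ± 0.09, adjusted p = 0.00874). Rps27, with 159.7 and 154.5 untreated and 429.6 and 249.7 irradiated, had the largest difference and duplicates far apart (0.99 ± 0.45, adjusted p = 0.154).

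Markers of other cell types differed between the same WT pools. All 4 tested neutrophil markers rose after irradiation past 2-fold (median 2.13), and the summed signal of the 5 on the array was 3580 to 4007 untreated and 23339 to 24173 irradiated. All 10 macrophage markers were higher with no fold threshold, 1 of them past 2-fold (median 0.80, sums of 6991 to 7093 and 11997 to 12247). So were 4 of 6 tested fibroblast markers (median 0.64, 1 of them past 2-fold). Of 3 tested erythroid markers 2 were higher, of 6 muscle markers 3 were lower and of 5 keratinocyte markers 1 was lower, all past 2-fold. No melanocyte, endothelial or lymphocyte marker passed that rule, where 2.25% of all tested genes were higher and 0.203% lower. With no fold threshold 3 of 10 melanocyte markers were higher and 2 lower. Of 5 tested endothelial markers 2 were higher and 1 lower by that rule. The background was then 12.1% higher and 13.4% lower. The part of these markers in the members' difference was not tested.

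In TNFR KO hosts, 1 member fell by more than 2-fold and none rose, where 0.881% of tested genes were higher and 0.485% lower. That member was Rpl39l, a paralogue of Rpl39 known for its expression in testis, and its values are given with the host comparison. It reached the level for testing only through the TNFR KO arrays, with the untreated ones highest. Its fall is therefore a description and adds no support to this count or to the next. With no fold threshold Rpl27a rose (0.34 ± 0.09, adjusted p = 0.0451) and Rpl12 and Rpl39l fell, where 9.43% of tested genes were higher and 14.4% lower. The bright members ran from -0.06 (Rpl7) to 0.23 (Rps19), with a median of 0.13 that was 0.10 with median-centred arrays and 0.02 after quantile normalization. Both irradiated arrays lay above both untreated arrays for 26 of the 32, as for 30.9% of all tested genes, 1 lay below and 5 overlapped. Rps19, mutated in Diamond-Blackfan anaemia, read 21354 and 21731 untreated and 25612 and 24898 irradiated (0.23 ± 0.07, adjusted p = 0.0508).

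**Figure D2:**
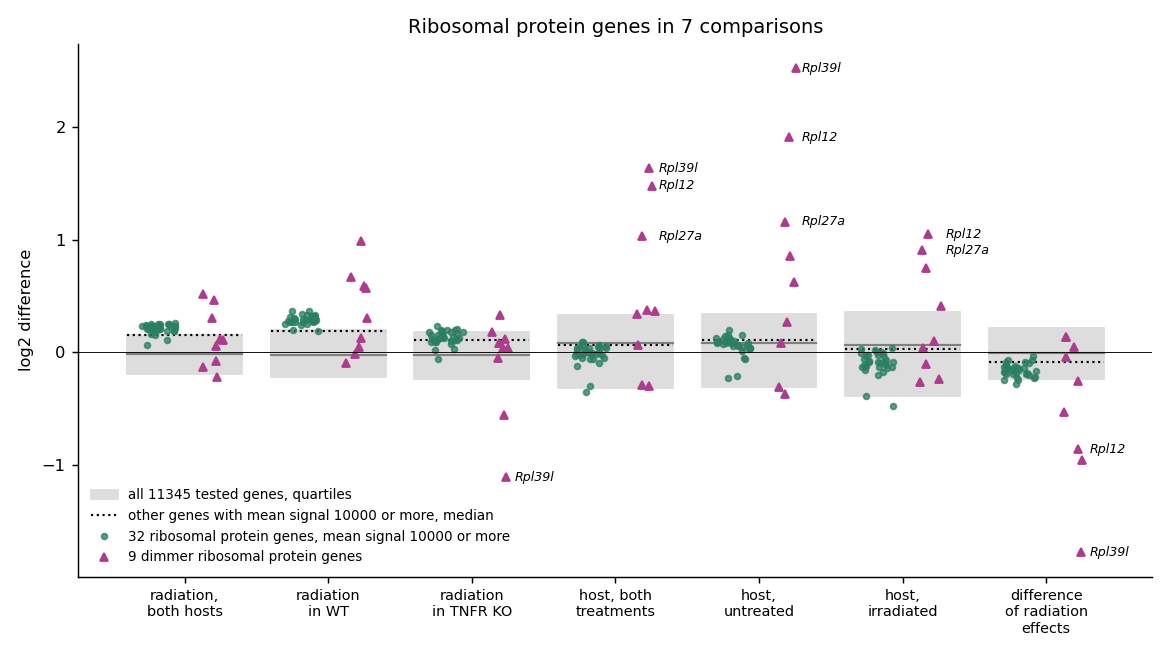
Log2 difference of the 41 tested ribosomal protein genes in each of the 7 comparisons (vertical axis, log2 of signal + 16). Circles are the 32 bright members, triangles the 9 dimmer ones, grey boxes the quartiles and grey lines the median of all tested genes, and dotted lines the median of 351 other bright genes. The bright members stay within 0.5 of 0 in every comparison and shift as a group, while Rpl39l, Rpl12 and Rpl27a lie apart in the host comparisons.

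Members known for a further role were read one by one. Rpl11, which with Rpl5 binds Mdm2, read 16604 and 17409 in untreated WT, 20230 and 21147 in irradiated WT, 18286 and 17666 in untreated TNFR KO and 21321 and 19887 in irradiated TNFR KO. Its radiation difference was 0.28 in WT and 0.20 in TNFR KO, inside the range of the other bright members. Rps3, which lines the messenger RNA entry site and has been described as a DNA repair endonuclease, differed by 0.32 and 0.20. Rplp0, the base of the stalk that recruits elongation factors, differed by 0.27 and 0.10, and its partner Rplp2 by 0.285 and 0.09. Rps6, the substrate of the S6 kinases downstream of mTORC1, was read by a probe set of lower signal and did not share the positive values, with 2347 and 2217 in untreated WT, 2099 and 2159 in irradiated WT, 1819 and 1853 in untreated TNFR KO and 1672 and 1869 in irradiated TNFR KO (radiation, -0.10 and -0.05).

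TNFR KO hosts were compared with WT hosts over both treatments. The receptor deletion, the stock the TNFR KO mice came from and the RNA preparation cannot be told apart in this comparison. Rpl12, Rpl27a and Rpl39l were higher in TNFR KO hosts and no member was lower, where 12% of all tested genes were higher and 18.9% lower (limma on the 4 pool means, adjusted p under 0.05). The count of 3 in 41 is below the background share of higher genes. Rpl39l reached the level for testing only through the TNFR KO arrays, where it is high: its mean log2 value was 5.89 on the WT arrays and 7.53 on the TNFR KO arrays, around a level of 6.41. Its host differences are therefore given as a description, and the count without it is 2. The members' median was 0.00, against 0.09 for all tested genes, and -0.07 with median-centred arrays. All 3 were read by dim probe sets without a suffix.

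Rpl39l read 31.5 and 30.9 in untreated WT, 80.2 and 42.4 in irradiated WT, 249.5 and 260.9 in untreated TNFR KO and 110.2 and 109.1 in irradiated TNFR KO. The TNFR KO arrays all lay above the WT arrays, the untreated ones highest, and 3 of the 4 WT arrays lay below the level for testing. The difference was 1.63 ± 0.32 on the log2(signal + 16) scale. By the same fit it no longer passed without the first untreated WT array (1.64, adjusted p = 0.0572). Its parent gene Rpl39 read 405.1 and 267.4, 436.8 and 565.9, 483.4 and 555.1, and 606.0 and 468.8 in the same order of pools, with overlap between hosts among the irradiated arrays and no call (0.36 ± 0.18, adjusted p = 0.147).

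Rpl12, which lies at the stalk base next to the factor-binding site, read 429.4 and 404.1 in untreated WT, 509.6 and 524.3 in irradiated WT, 1656 and 1564 in untreated TNFR KO and 1005 and 1173 in irradiated TNFR KO. The hosts did not overlap in either treatment (1.48 ± 0.21, adjusted p = 0.000722). Rpl27a, a large subunit protein, read 375.4 and 328.8, 509.4 and 566.8, 827.4 and 783.2, and 993.2 and 1046 in that order, with the hosts again apart (1.03 ± 0.17, adjusted p = 0.00137). Rpl12 and Rpl39l were highest in untreated TNFR KO tumours, whereas Rpl27a was highest in irradiated TNFR KO tumours. All 3 calls were lost when genes below the level for testing were also tested (adjusted p = 0.068, 0.0691 and 0.117 for Rpl12, Rpl27a and Rpl39l).

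Marker lists of other cell types were read in the same comparison. All 5 tested keratinocyte markers of 7 on the array were higher in TNFR KO hosts, and the summed signal of the 7 was 407.9 to 520.6 in untreated WT, 613.1 to 616.6 in irradiated WT, 2791 to 3108 in untreated TNFR KO and 878.9 to 897.3 in irradiated TNFR KO. Of 6 tested fibroblast markers 4 were higher and 1 was lower, with sums of 4719 to 4823, 7292 to 7325, 14801 to 15178, and 9972 to 9991 in that order. No tested marker of either list had a pool mean of 0. Of the other lists, 3 of 5 tested endothelial and 2 of 3 erythroid markers were higher and none lower. Of 4 neutrophil markers 3 were lower, with sums of 3580 to 4007, 23339 to 24173, 999 to 1036 and 1142.5 to 1142.6 in that order of pools, and 5 of 6 muscle markers and 1 of 10 melanocyte markers were lower. None of 10 macrophage markers passed, with sums of 6991 to 7093, 11997 to 12247, 15325 to 15736 and 9985 to 10297, nor the 1 tested lymphocyte marker. Endothelial sums were 1064 to 1122, 1252 to 1294, 2232 to 2234 and 1717 to 1864 in that order. For keratinocytes, fibroblasts and endothelium the order of pools, untreated TNFR KO highest and untreated WT lowest, was that of Rpl12 and Rpl39l. Macrophage sums were also highest and lowest in those pools. The part of any list in the members' difference was not tested.

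**Figure D3:**
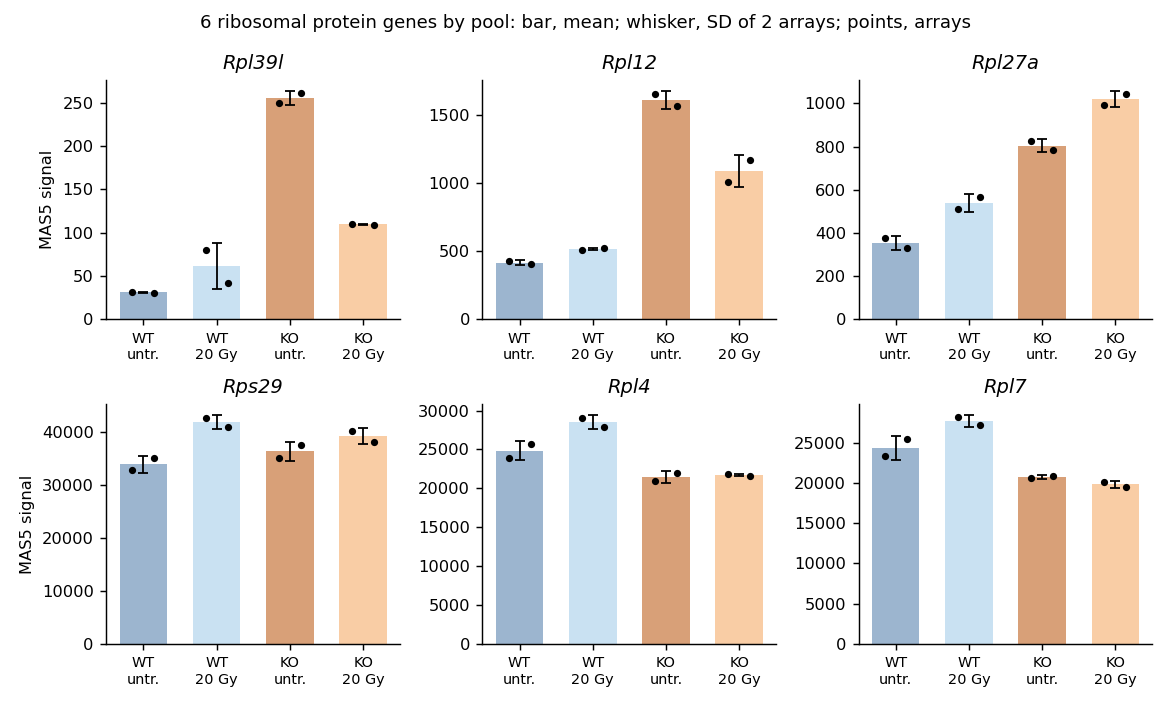
MAS5 signal of 6 ribosomal protein genes in the 4 pools (vertical axes from 0, arbitrary units, each gene on its own scale). Bars are the mean of 2 duplicate arrays, whiskers their SD and points the arrays. Rpl39l, Rpl12 and Rpl27a were higher in both TNFR KO pools, Rps29 followed radiation in both hosts, and Rpl4 and Rpl7 were lower in both TNFR KO pools.

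Within single treatments the host difference kept its direction for these genes. In untreated tumours Rpl12 (1.91 ± 0.09, adjusted p = 0.00012) and Rpl27a (1.16 ± 0.09, adjusted p = 0.000295) passed with at least 2-fold, where 2.06% of tested genes were higher and 6.25% lower. Rpl39l, which is described only, differed by 2.52 ± 0.22. In irradiated tumours Rpl12 passed (1.05 ± 0.09, adjusted p = 0.000345) against 0.793% higher and 7.43% lower, and it fell under 2-fold without the second irradiated TNFR KO array (0.94). Rpl27a was higher there by less than 2-fold (0.90 ± 0.09, adjusted p = 0.000569), and Rpl39l differed by 0.75 ± 0.22. These comparisons use the same 4 pools as those of radiation and are not independent of them.

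The bright members moved little between hosts. Their median was 0.08 in untreated tumours and -0.09 in irradiated tumours on the deposited scale, -0.11 and -0.05 after median centring, which shifts all genes of an array alike, and 0.00 and 0.02 after quantile normalization. Relative to the median of all tested genes, the 41 members differed by 0.01 and -0.15 as deposited and after median centring, and by -0.07 and -0.08 after quantile normalization. Rpl4, whose extension reaches the peptide exit tunnel, and Rpl7, also of the large subunit, had the lowest host differences of the 32 under all 3 scalings. Rpl4 read 23954 and 25690 in untreated WT, 29117 and 27864 in irradiated WT, 20967 and 22025 in untreated TNFR KO and 21837 and 21622 in irradiated TNFR KO. Rpl7 read 23320 and 25446, 28214 and 27222, 20595 and 20895, and 20191 and 19548 in that order. For both genes the 4 TNFR KO arrays lay below the 4 WT arrays, yet neither passed over both treatments (Rpl4 -0.30 ± 0.16, adjusted p = 0.182, and Rpl7 -0.36 ± 0.17, adjusted p = 0.123).

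Rpl4 had 1 single-gene probe set and Rpl7 had 3, all bright. The other two of Rpl7 differed by -0.15 and 0.20 in untreated tumours and by -0.41 and -0.53 in irradiated tumours, so they disagreed in sign without irradiation and shared it after. Each probe set was also tested on its own with no fold threshold. In untreated tumours the Rpl7 value of 0.20 then passed (adjusted p = 0.0465) and that of -0.15 did not (adjusted p = 0.0882). Rpl4 in untreated tumours did not pass by that fit either (adjusted p = 0.055). In the fit by gene, read by the brightest probe set and with no fold threshold, both genes were lower in TNFR KO hosts in each treatment. The differences were -0.21 (adjusted p = 0.0394) and -0.39 (adjusted p = 0.00349) for Rpl4 and -0.23 (adjusted p = 0.0286) and -0.48 (adjusted p = 0.00169) for Rpl7, in untreated and irradiated tumours. By this rule 5 members were higher and 3 lower in untreated tumours, where 26.4% and 23.8% of tested genes were, and 4 were higher and 4 lower in irradiated tumours, where 28.4% and 27.3% were. Besides the genes named, the lower ones were Rps6 in both treatments (-0.31 and -0.27) and Rps24 in irradiated tumours (-0.20), and the higher ones Rps25, which takes part in initiation at internal ribosome entry sites, in both treatments (0.27 and 0.41) and Rps28 in untreated tumours (0.20). Rps25 read 2266 and 2225 in untreated WT, 2322 and 2316 in irradiated WT, 2764 and 2671 in untreated TNFR KO and 3058 and 3121 in irradiated TNFR KO, with no overlap between hosts.

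The radiation effect in TNFR KO hosts was also set against that in WT hosts. Rpl39l was the 1 member past adjusted p under 0.05 and 2-fold, at -1.78 ± 0.30, where 0.159% of tested genes were higher and 2.05% lower. It was tested only through its TNFR KO arrays, so the value is a description and supports no difference between the hosts. Its radiation difference was 0.67 ± 0.22 in WT (adjusted p = 0.0692), and it fell in TNFR KO (-1.11 ± 0.22, adjusted p = 0.0171). The call on the difference was lost without any one of the 2 untreated WT, 2 untreated TNFR KO or 2 irradiated TNFR KO arrays (adjusted p = 0.0717 to 0.0844), and the fall in TNFR KO without any one of the 4 TNFR KO arrays (adjusted p = 0.0682 to 0.0792). Rpl12 passed with no fold threshold (-0.86 ± 0.13, adjusted p = 0.018), where 3.52% of tested genes were higher and 6.04% lower, with 0.30 in WT and -0.56 in TNFR KO. The other 39 tested members did not pass. All 32 bright members had a negative value on the deposited scale, from -0.28 to -0.04, with a median of -0.16 that was 0.07 after median centring and 0.03 after quantile normalization. Relative to the median of all tested genes, the 41 members differed by -0.147 as deposited and after median centring and by -0.006 after quantile normalization.

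The single-gene probe sets that were not the brightest of their gene were then examined, a step chosen after seeing the data. The 44 members had 95 single-gene probe sets, of which 82 were tested among 19926. None of the 64 bright probe sets was called in any of the 7 comparisons, where single-pool comparisons also required 2-fold. With no fold threshold some did pass in single pools, as 1 of Rpl7 did for radiation in WT (0.63). Of the other 18, which belong to 17 genes, 7 were higher and none lower in TNFR KO hosts over both treatments, where 6.97% of all tested probe sets were higher and 17% lower. They read Rpl12, Rpl27a, Rpl39l, Rpl41 (2 probe sets), Rps9 and Rpl37a. Rpl39l was tested only through its TNFR KO arrays. It is a description and adds no support to this count or to those below that include it. In single treatments, with the 2-fold rule as well, 7 were higher in untreated TNFR KO tumours (background 2.69%, and 7.15% lower). These were not the same 7, since the Rpl37a probe set was not called there (0.48). In irradiated tumours 2 were higher (0.964%, and 8.02% lower), and none was lower in either treatment. Radiation gave none in WT (1.85% and 0.241%) and 1 lower in TNFR KO (0.733% higher, 0.507% lower), and the difference between radiation effects 2 lower (0.196% higher, 1.96% lower), which read Rpl39l and Rpl41.

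For Rpl41, Rps9 and Rpl37a the bright probe sets gave another answer than the dim ones. The brighter of the dim Rpl41 probe sets read 180.4 and 237.7 in untreated WT, 303.3 and 356.3 in irradiated WT, 1028 and 872.4 in untreated TNFR KO and 600.0 and 611.7 in irradiated TNFR KO (1.48 ± 0.29, adjusted p = 0.0177). The bright Rpl41 probe sets differed between hosts by -0.06 and 0.01, neither called. The dim Rps9 probe set read 122.0 and 101.5, 87.0 and 115.2, 471.6 and 513.7, and 273.0 and 282.5 in that order (1.67 ± 0.20, adjusted p = 0.00601). The bright Rps9 probe sets differed by 0.09 and 0.07. Probe sets assigned to 1 gene thus disagreed on whether it differed between hosts, and for Rpl12 and Rpl39l, with 1 single-gene probe set each, no second reading was used here. Where a gene had several bright probe sets, as 17 genes did, they shared the sign of the radiation difference in each host for all 17, and of the host difference for 8. For radiation in WT the range among them was largest for Rpl7 (0.446, median of the 17 genes 0.065). It was also largest for Rpl7 in the difference between radiation effects (0.487, median 0.131).

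**Figure D4:**
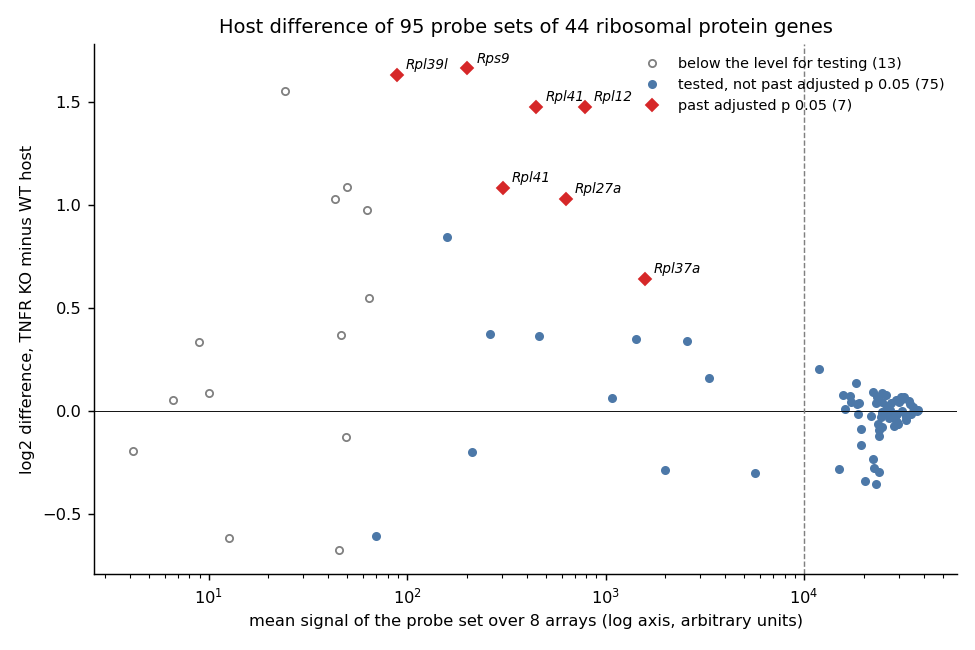
Log2 difference between TNFR KO and WT hosts over both treatments (vertical axis) against the mean signal (log axis, arbitrary units) for all 95 single-gene probe sets of the 44 genes. Diamonds are the 7 probe sets past adjusted p 0.05, filled circles 75 tested probe sets that were not, and open circles 13 below the level for testing. All 7 lie below the dashed line at a signal of 10000, and the bright probe sets cluster around 0.

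The members' shift after irradiation was also set against that of all tested genes under each scaling. Over both hosts the gap between the members' median and that of all tested genes after irradiation was 0.231 as deposited, 0.232 after median centring and 0.028 after quantile normalization. In WT hosts the medians were 0.30 as deposited, 0.04 after median centring and 0.00 after quantile normalization. Median centring also moved the median of all tested genes to -0.28 there. The members' small medians after quantile normalization were largely fixed in advance, as described above for the bright members.

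**Figure D5:**
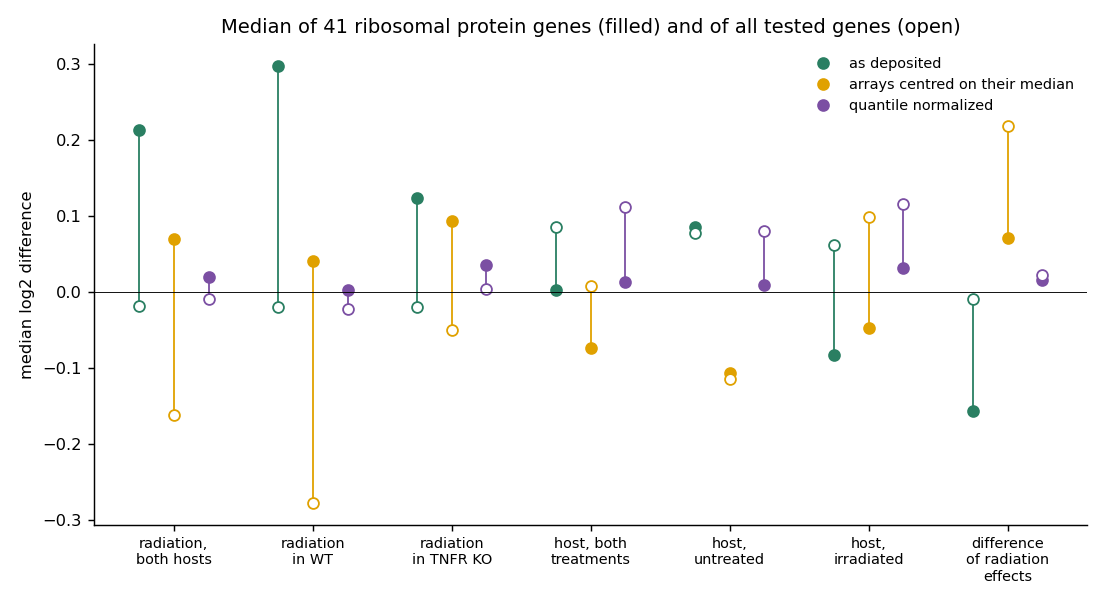
Median log2 difference of the 41 tested ribosomal protein genes (filled) and of all 11345 tested genes (open) in the 7 comparisons under 3 scalings of the arrays. Vertical lines join both medians. After quantile normalization the members' medians lie between 0.00 and 0.04 in every comparison, which that scaling largely fixes in advance for the brightest genes.

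Related gene lists gave the setting of the family. Of 6 tested ribosomal proteins that the name rule missed, none passed over both hosts after irradiation and 1 was lower in TNFR KO hosts. That one was Rpl22l1, a paralogue of Rpl22, with 12318 untreated and 12910.1 irradiated in WT, against 7165 and 8354 in TNFR KO (-0.70 ± 0.16, adjusted p = 0.00898), while Rpl22 itself differed by -0.01. Rpsa, the small subunit protein also known as a laminin receptor, Rps3a1 and Fau, the precursor of Rps30, gave radiation differences of 0.21, 0.11 and 0.23 over both hosts, near those of the bright members. Rps27l, a paralogue of Rps27 and a known p53 target, read 18416 and 23772 in WT and 17000.3 and 23961 in TNFR KO. It rose after irradiation in each host with no fold threshold (0.37 and 0.495, adjusted p = 0.00906 and 0.00451), where 12.1% and 9.43% of all tested genes did. The 351 other bright genes had medians of 0.19 and 0.105 in the same comparisons. These values are on the deposited scale only.

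Genes that build and serve ribosomes were compared between hosts in the same fit. Over both treatments 5 of 50 tested ribosome biogenesis genes were higher in TNFR KO hosts and 15 lower, and 2 of 30 initiation factors were higher and 7 lower, against the background of 12% and 18.9%. Nop58, of the box C/D small nucleolar particles, had 1168 untreated and 907.3 irradiated in WT, against 305.1 and 212.6 in TNFR KO (-1.95 ± 0.16, adjusted p = 0.000238). Abce1, which recycles ribosomes after termination, was lower, with 2106 and 1569.5 in WT and 669.7 and 523.3 in TNFR KO (-1.59 ± 0.16, adjusted p = 0.000245), and Npm1, a nucleolar chaperone whose messenger RNA also carries a TOP tract, likewise, with 16697 and 17414 against 8226 and 6892 (-1.18 ± 0.17, adjusted p = 0.000736). Of 11 elongation and release factors 1 was higher and 3 lower, of 14 RNA polymerase I genes 2 and 3, of 17 mTORC1 and TOP regulators 3 and 2, of 14 other TOP genes 0 and 2, and of 76 mitochondrial ribosomal proteins 3 and 2. After irradiation over both hosts none of these lists, nor biogenesis or initiation, had a gene past the test, with list medians from -0.15 to 0.14. Ddit4, an inhibitor of mTORC1, came near it (0.73 ± 0.17, adjusted p = 0.0593), with 2379 and 3445 in WT and 980.8 and 1880.4 in TNFR KO.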

How the data were processed

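The deposited values are MAS5 signal intensities for 45101 probe sets on 8 arrays, made by the authors per the submitters' processing notes; version and settings are not given in the sources used here, and the trimmed mean of 500 was checked on the values. Detection calls were not used here. From these log2(signal + 16) was computed, 64 control probe sets were left out, and each of 18193 genes was read by its brightest single-gene probe set (34945 probe sets with 1 gene symbol, 932 with several, 9160 with none; symbols from the platform annotation). A gene entered the tests when its mean over the 8 arrays was at or above the midpoint (median) of the log2 means of non-control probe sets.

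Comparisons over both hosts or treatments used limma 3.58.1 in R 4.3.3, additive in host and radiation, on the 4 pool means (1 residual degree of freedom, 9.52 prior), with Benjamini-Hochberg adjusted p under 0.05. Comparisons of single pools used limma on the 8 arrays (4 residual degrees of freedom), with at least 2-fold as well; their p-values measure only the spread between duplicates. Fits ran on all tested genes and were tested on simulated data. Fold changes on this scale understate changes of dim genes, and the number of arrays limits precision.

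All members could be named; full values were for the extremes of each comparison, called members, the brightest and dimmest, and members chosen for their roles or as paralogues, and for lists up to 4 called genes and set names. Members and lists were chosen with earlier results of these data known. Alternatives covered scaling, pseudocount, filter, probe set choice, variance model, fold threshold, replicate block and leaving out each array. Promoter windows came from RefSeq (GRCm38.p6). Figures were drawn with matplotlib 3.10.9.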

Additional observations from a re-analysis of the deposited data

Results flagged for a closer look

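Rpl39l was flagged because the test of the difference between radiation effects called it, at -1.78 on the log2 scale, TNFR KO minus WT. Its signal was higher on both irradiated WT arrays than on the untreated ones and lower on both irradiated TNFR KO arrays. The signal on the WT arrays was 30.9 to 80.2, and 3 of the 4 lay below the level for testing of 68.8. The gene was tested only through its TNFR KO arrays, so the value is a description and supports no difference between the hosts.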

How the results depend on the processing

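No result changed direction past a test under any alternative, but some medians of the members, which have no test, changed sign. As deposited they were 0.003 for host over both treatments, 0.085 in untreated and -0.083 in irradiated tumours, and -0.156 for the difference between radiation effects. Each of them took the other sign under median centring or quantile normalization, as given below. The median of the members moved with the scaling. Quantile normalization gave 0.019 for radiation over both hosts, 0.003 in WT, 0.035 in TNFR KO, 0.009 for host in untreated tumours, 0.032 in irradiated tumours and 0.016 for the difference between radiation effects. Median centring gave 0.07 for radiation over both hosts, 0.04 in WT, -0.074 for host over both treatments, -0.106 in untreated tumours and 0.071 for the difference. Probe sets without a suffix gave 0.154 for radiation over both hosts, 0.039 in TNFR KO, 0.345 for host over both treatments, 0.259 untreated and 0.096 irradiated.

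For members called, the fit on 8 arrays with no replicate block gave 17 for radiation over both hosts and the replicate block 5, all higher, against 0; these fits called 9.36% and 6.63% of all tested genes higher. For host over both treatments both gave 7 (4 higher, 3 lower), against 3, where the fit on 8 arrays called 30.6% of all genes higher and 26.2% lower. Duplicate numbers share only a number, since the correlations of deviations between pools were -0.032 to 0.052. The block moved no count of the single-pool comparisons. For host over both treatments no filter gave 0, averaging each gene's probe sets 6 (13.5% of all genes higher), probe sets without a suffix 6 (10.7%), limma-trend 7 (18.4%, and 21% lower) and each probe set tested on its own, added after seeing the data, 7. In untreated tumours probe sets without a suffix gave 6, adjusted p alone 8 and each probe set 7; in irradiated tumours a pseudocount of 64 gave 0, probe sets without a suffix 2, adjusted p alone 8, 1.5-fold 3 and each probe set 2. Radiation in WT gave 25 with adjusted p alone and 1 at 1.5-fold; in TNFR KO a pseudocount of 64, no filter and the 75th percentile gave 0 and adjusted p alone 3. The difference between radiation effects gave 0 with no filter and the 75th percentile, and 2 with adjusted p alone, at 1.5-fold and by probe set.

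Leaving out each array gave medians of 0.195 to 0.234 for radiation over both hosts, -0.016 to 0.039 for host over both treatments, 0.250 to 0.335 in WT, 0.093 to 0.162 in TNFR KO, 0.049 to 0.126 untreated, -0.125 to -0.024 irradiated and -0.205 to -0.119 for the difference. Counts were 0 throughout, 2 to 3, 0 to 1, 0 to 1, 3 to 4, 0 to 2 and 0 to 1 in that order. The single-pool count changed without the second irradiated WT array (1 in WT) and the second untreated TNFR KO array (4 in untreated tumours). In irradiated tumours it changed without the first irradiated WT array (2) and the second irradiated TNFR KO array (0). The count of 1 for radiation in TNFR KO went to 0 without any one of the 4 TNFR KO arrays, and that of 1 for the difference to 0 without any one of the untreated arrays or the irradiated TNFR KO arrays. The cause of these changes was not tested, other than fewer arrays where arrays were left out.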
